A study of Mus musculus with 48 samples.

Results

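The Wnt antagonist genes Sfrp1, Sfrp2, Sfrp5, Frzb, Wif1, Dkk3, Rnf43, Znrf3 and Apcdd1 are 9 of the 55357 genes in the count table. They were taken by name, as genes for secreted or membrane proteins that hold back Wnt signaling. The choice was made with earlier results of these data known, and 16 further Wnt antagonist genes were not taken as members. The shares of members called below therefore do not come from a list independent of the data. The dorsal dentate gyrus of wild-type C57BL/6J mice was sequenced as bulk poly(A) RNA 3, 7 or 14 days after a unilateral intrahippocampal injection of kainate or of saline. The mice were 6 to 8 weeks old per the series record, while the methods of the study give a somewhat older age. The injected side is named the epileptogenic zone (EZ) and the opposite side the peri-ictal zone (PIZ). Each of the 12 groups of region, injection and day held 4 libraries, and the 48 libraries came from both sides of 24 mice. The record gives 2 male and 2 female mice per group but not the sex of each library. Per the methods of the study, every kainate-injected mouse had a motor seizure soon after the injection and no saline-injected mouse was seen to have one.

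Wnt ligands bind Frizzled receptors and the coreceptors Lrp5 and Lrp6, and in the canonical branch this keeps beta-catenin from being degraded. Secreted Frizzled-related proteins (Sfrp1, Sfrp2, Sfrp5 and Frzb, also called Sfrp3) and Wif1 bind Wnt ligands outside the cell, Rnf43 and Znrf3 are membrane ubiquitin ligases that take Frizzled off the cell surface, and Apcdd1 is a membrane glycoprotein that binds Wnt and Lrp5. Dkk3 is the most divergent secreted member of the Dickkopf family. In the dentate gyrus, Wnt ligands act on the birth and maturation of granule neurons, and Frzb made by mature granule neurons is known as a brake on that process.

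Library totals ranged from 17762656 to 25712975 counts with a median of 22108562.5. All 9 genes passed the filter on low counts, which kept 21390 genes. Sfrp5 passed only through kainate libraries, since no saline library held more than 3 of its counts, and its calls rest on the groups where it was high. Levels are given as CPM, the count of a gene relative to the TMM-scaled total of its library, and raw counts are given where they are low. A gene was called when its edgeR quasi-likelihood adjusted p was under 0.01 and its fold change was over 1.5. Granule cell markers were present, with Fam163b at a mean of 398.8 CPM and Prox1 at 247 CPM over all libraries. The PIZ libraries of saline mouse 18 at day 3, kainate mouse 21 at day 7 and saline mouse 39 at day 14 stood apart, with summed granule cell markers of 948.7, 649.2 and 779.1 CPM where the other 21 PIZ libraries lay between 1125 and 1998 CPM. Their summed mossy cell markers were 845.5, 852.8 and 862.1 CPM, against 243.3 to 577.4 CPM in the others. Sv2b and Ap2s1, with means of 275.7 and 78.51 CPM over all libraries, made up most of this sum, and no other marker of that list had a mean above 16.28 CPM. The EZ library of kainate mouse 27 at day 14 also stood apart from its group, with summed reactive astrocyte markers of 8249 CPM where the other 3 mice had 902.7 to 1797 CPM, and with summed microglia markers of 3425 CPM against 527.6 to 812.5 CPM.

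The promoters of 4 members are shown because the results turn on these genes. Sfrp1 and Sfrp5 had the largest called increases among the members in the EZ, and Dkk3 and Wif1 were the members that fell there. Each window holds 250 bases before and 50 bases from the start of the canonical transcript in the Gencode M39 annotation of GRCm39, written 5′ to 3′ on the strand of the gene. The windows are chr8:23901013-23901312 on the plus strand for Sfrp1, chr19:42190642-42190941 on the minus strand for Sfrp5, chr7:111758527-111758826 on the minus strand for Dkk3 and chr10:120869615-120869914 on the plus strand for Wif1. Capitals mark the core CTTTGA that TCF and LEF factors recognize, which was searched on both strands together with TTCNNNGAA, the core recognized by STAT factors.
Sfrp1: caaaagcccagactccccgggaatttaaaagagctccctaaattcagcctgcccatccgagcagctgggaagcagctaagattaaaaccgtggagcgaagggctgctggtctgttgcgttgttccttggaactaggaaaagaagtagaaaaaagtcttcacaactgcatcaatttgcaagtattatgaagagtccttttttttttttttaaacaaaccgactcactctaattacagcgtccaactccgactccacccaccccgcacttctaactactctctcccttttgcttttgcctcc
Sfrp5: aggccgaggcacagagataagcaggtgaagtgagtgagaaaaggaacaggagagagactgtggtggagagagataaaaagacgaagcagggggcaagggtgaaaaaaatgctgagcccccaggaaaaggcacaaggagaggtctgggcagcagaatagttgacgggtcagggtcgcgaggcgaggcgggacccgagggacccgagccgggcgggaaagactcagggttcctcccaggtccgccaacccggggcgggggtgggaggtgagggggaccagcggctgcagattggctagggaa
Dkk3: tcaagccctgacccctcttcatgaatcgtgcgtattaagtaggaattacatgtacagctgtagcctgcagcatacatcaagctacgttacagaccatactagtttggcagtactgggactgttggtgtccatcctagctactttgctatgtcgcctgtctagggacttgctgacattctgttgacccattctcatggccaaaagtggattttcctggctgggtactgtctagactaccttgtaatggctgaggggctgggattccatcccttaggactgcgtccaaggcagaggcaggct
Wif1: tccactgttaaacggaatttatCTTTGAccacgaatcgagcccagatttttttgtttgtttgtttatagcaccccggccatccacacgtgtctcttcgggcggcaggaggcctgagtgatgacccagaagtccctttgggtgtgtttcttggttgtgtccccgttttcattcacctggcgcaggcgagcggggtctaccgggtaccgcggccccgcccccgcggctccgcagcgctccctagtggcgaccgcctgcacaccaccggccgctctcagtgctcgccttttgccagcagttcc
CTTTGA was found in the windows of Wif1, 228 bases before the start, and Apcdd1, 152 bases before the start. It was found in 16.2% of 21757 promoters of protein-coding genes. TTCNNNGAA was found in no member window and in 8.82% of all promoters. These matches describe the letters of the windows and were not tested for binding.

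In saline-injected mice the members differed widely in level. Per kilobase of exon, Dkk3 stood highest in the EZ at 41.04 ± 7.439 CPM per kb (SD, n = 12 mice), and Frzb followed at 5.77 ± 0.859 CPM per kb. Apcdd1 at 3.13 ± 0.312 and Znrf3 at 2.61 ± 0.249 CPM per kb were next, and the ranges of these neighbors overlapped. Sfrp1 at 0.657 ± 0.156 CPM per kb was separate from both its neighbors in the order. Rnf43 at 0.341 ± 0.0517, Wif1 at 0.288 ± 0.112 and Sfrp2 at 0.120 ± 0.0387 CPM per kb followed, with overlapping ranges from each to the next. Sfrp5 was last at 0.0106 ± 0.0230 CPM per kb, and no saline library held more than 3 of its counts. The order was the same in the saline PIZ, and the same pairs of neighbors overlapped there.

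**Figure D1:**
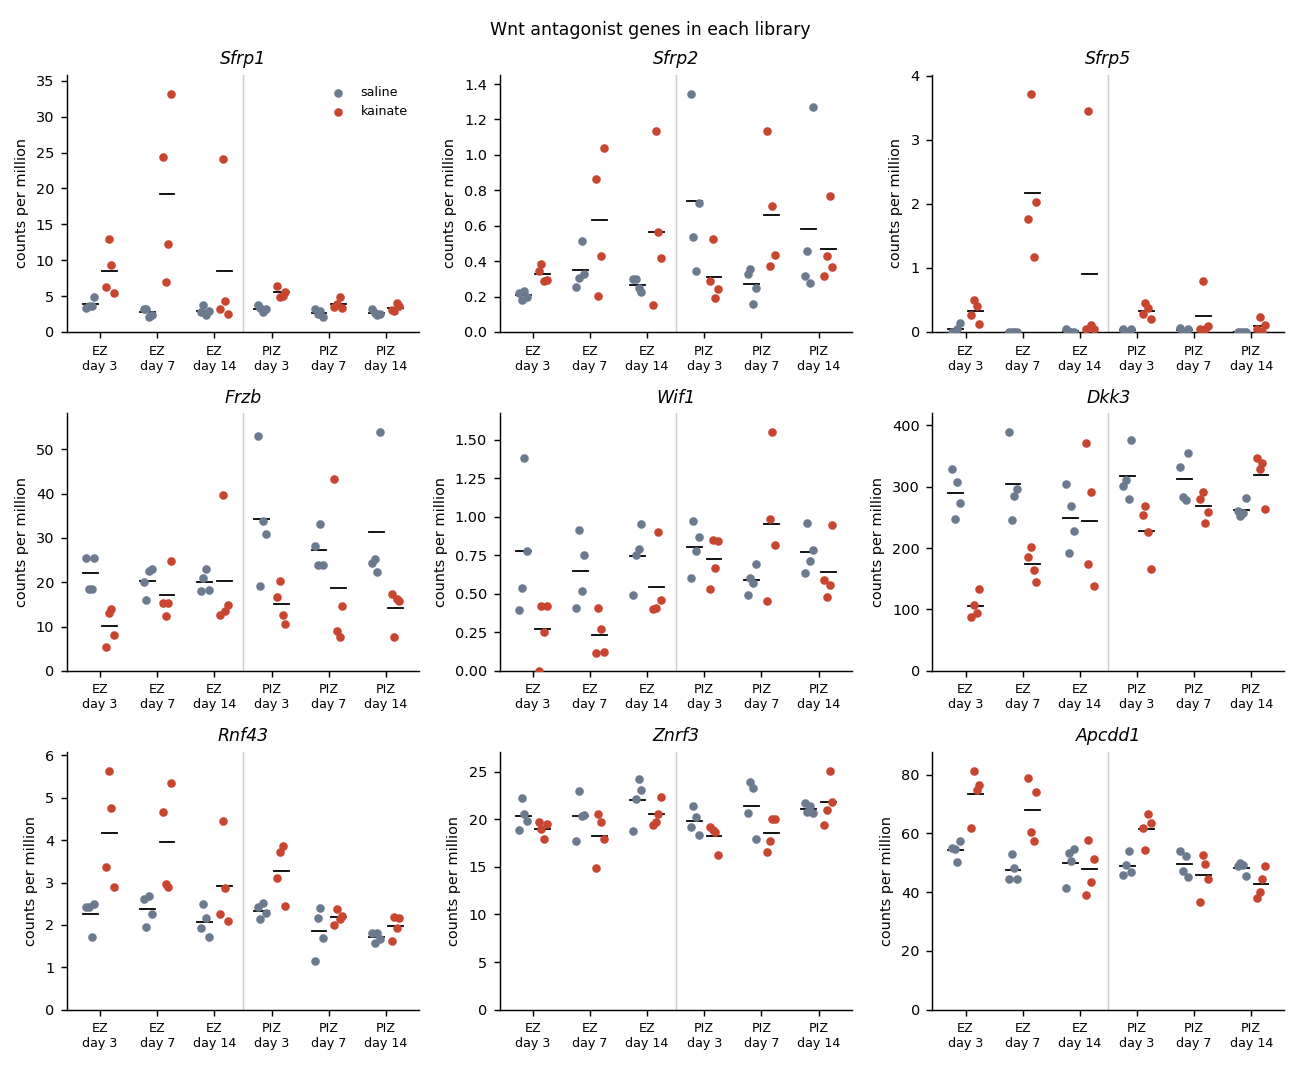
Each panel plots the CPM of 1 Wnt antagonist gene (y axis, from 0) in every library by region and day (x axis). Gray points are saline-injected mice, red points are kainate-injected mice and black bars are the means of 4 mice, and Sfrp1 reached 33.2 CPM in an EZ library of kainate-injected mice at day 7 where the saline-injected mice had at most 3.22 CPM.

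Kainate was compared with saline within each region and day to ask which Wnt antagonists changed as epilepsy developed. In the EZ, 3 of 9 members were called at day 3, against 24.7% of all genes tested, and 5 of 9 at day 7, against 32.5%. At day 14, 1 of 9 was called in the EZ, against 2.36%. In the PIZ, edgeR called 0 of 9 members at day 3, 0 of 9 at day 7 and 0 of 9 at day 14, against 8.69%, 0.201% and 0.014% of all genes. In these 3 comparisons 6, 2 and 1 members had an unadjusted edgeR p under 0.05, DESeq2 called 0, 0 and 0, and limma-voom with quality weights, which can weigh single libraries down, called 2, 1 and 0. The edgeR tests use a spread between mice that is pooled over all 12 groups. The median log2 fold change of the 9 members was 0.44 in the EZ at day 3 and 0.51 at day 7, where the medians over all genes were 0.03 and 0.01. Kainate-injected and saline-injected mice did not overlap for 6 of 9 members in the EZ at day 3, against 42.4% of all genes tested, for 6 of 9 at day 7, against 43.8%, and for 0 of 9 at day 14, against 8%. In the PIZ this held for 4 of 9 at day 3, 2 of 9 at day 7 and 1 of 9 at day 14, against 30.7%, 12.9% and 7.18%. The RNA is from whole tissue, so fewer cells of a type and less RNA per cell cannot be told apart.

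**Figure D2:**
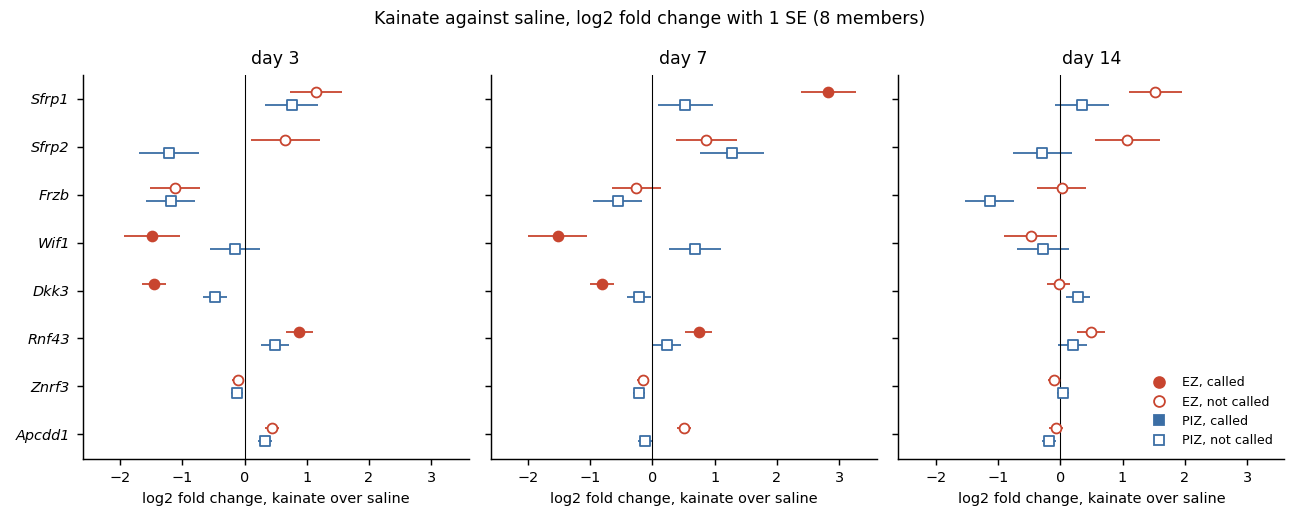
The log2 fold change of kainate over saline (x axis) with 1 standard error is plotted for 8 members (y axis) at each day, with circles for the EZ, squares for the PIZ and filled symbols for called genes. Sfrp1 reached 2.83 in the EZ at day 7, Znrf3 stayed between -0.21 and 0.05 in all 6 comparisons, and Sfrp5 is left out because its saline counts were near 0.

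Sfrp1 rose in the EZ at day 7. This gene (ENSMUSG00000031548, GRCm39 chromosome 8, 23901263 to 23939648, plus strand) encodes a secreted protein with a Frizzled-like cysteine-rich domain. At day 7 the 4 kainate-injected mice had 6.99, 12.3, 24.5 and 33.2 CPM in the EZ and the 4 saline-injected mice 2.06, 2.35, 3.21 and 3.22 CPM. Every kainate value lay above every saline value, and the kainate-injected mice differed among themselves by more than the distance of the lowest of them to the saline range. The log2 fold change was 2.83 (SE 0.44 and adjusted p = 1.48e-06). Leaving out each mouse in turn gave 2.43 to 3.10, and the gene was called each time.

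At day 3 Sfrp1 had 5.43, 6.31, 9.40 and 12.9 CPM in the EZ of kainate-injected mice and 3.31 to 4.82 CPM in saline-injected mice. The groups did not overlap, and the log2 fold change of 1.15 (SE 0.42) was not called, with an adjusted p of 0.0220. It was called by limma-voom (1.21, adjusted p = 1.26e-06) and with only the compared groups in the edgeR model (1.11, adjusted p = 0.00752). At day 14 kainate mouse 27 had 24.1 CPM, and the other 3 kainate-injected mice had 2.51, 3.18 and 4.33 CPM against 2.31 to 3.75 CPM in saline-injected mice. The log2 fold change of 1.53 (SE 0.43 and adjusted p = 0.0266) was 0.16 without mouse 27. It was called without kainate mouse 14, 36 or 40 (1.74 to 1.83).

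In the PIZ, Sfrp1 at day 3 was 4.89 to 6.47 CPM in kainate-injected mice and 2.77 to 3.76 CPM in saline-injected mice, with a log2 fold change of 0.76 (SE 0.42 and adjusted p = 0.196). The groups did not overlap at day 3 or at day 7, when the values were 3.31 to 4.89 and 2.13 to 3.18 CPM. The kainate effect at day 7 was larger in the EZ than in the PIZ by 2.30 on the log2 scale (SE 0.61 and adjusted p = 0.00683), and Sfrp1 was higher in the EZ than in the PIZ of the same mouse in 4 of 4 kainate-injected mice. This call was lost without saline mouse 20, 33, 34 or 89 or kainate mouse 21 or 35, where the adjusted p reached 0.0466. With the mouse as a block the difference was 2.09 (adjusted p = 0.0153), and without the 3 PIZ libraries named above it was 2.24 (adjusted p = 0.0197).

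Sfrp5 was near absent in saline-injected mice and appeared in the EZ after kainate. The gene (ENSMUSG00000018822, chromosome 19, 42186410 to 42190691, minus strand) encodes another secreted Wnt-binding protein. In the EZ at day 7, the kainate libraries held 30, 45, 49 and 73 counts, and all 4 saline libraries held 0. Summed over the group, this was at least 57.6-fold higher than a floor of 3 counts over the 4 saline libraries. The gene was called (adjusted p = 1.86e-05), with the limit that it passed the count filter only through kainate libraries. At day 3 the kainate libraries held 3, 7, 11 and 13 counts and the saline libraries 0, 0, 1 and 3 counts. The ratio of the summed values was 7.14 with an exact 95% interval of 2.55 to 27.7, which covers counting error only, and the gene was not called by edgeR (adjusted p = 0.0771) but was by limma-voom (adjusted p = 2.47e-05).

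At day 14 kainate mouse 27 held 76 Sfrp5 counts and the other 3 kainate-injected mice held 1, 1 and 2. The saline libraries held 1 count in all. The adjusted p of 0.0099977 lay just under the threshold of 0.01, and without mouse 27 it was 1. The call was also lost without saline mouse 24, 28, 31 or 39, where the adjusted p reached 0.0476. In the PIZ the kainate libraries held 5, 7, 8 and 11 Sfrp5 counts at day 3, against 0, 0, 1 and 1 in saline libraries, with a ratio of 14.2 (exact 95% interval 3.61 to 122) and an adjusted p of 0.0681. At day 7 kainate mouse 23 held 17 counts in the PIZ and the other 3 kainate-injected mice 1, 1 and 2. The same mouse had the highest count of the EZ at day 7, 73. At day 7 Sfrp5 was higher in the EZ than in the PIZ of the same mouse in 4 of 4 kainate-injected mice, and the difference of the kainate effects between regions was not called by edgeR (adjusted p = 0.220) but was by limma-voom (adjusted p = 3.53e-05).

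**Figure D3:**
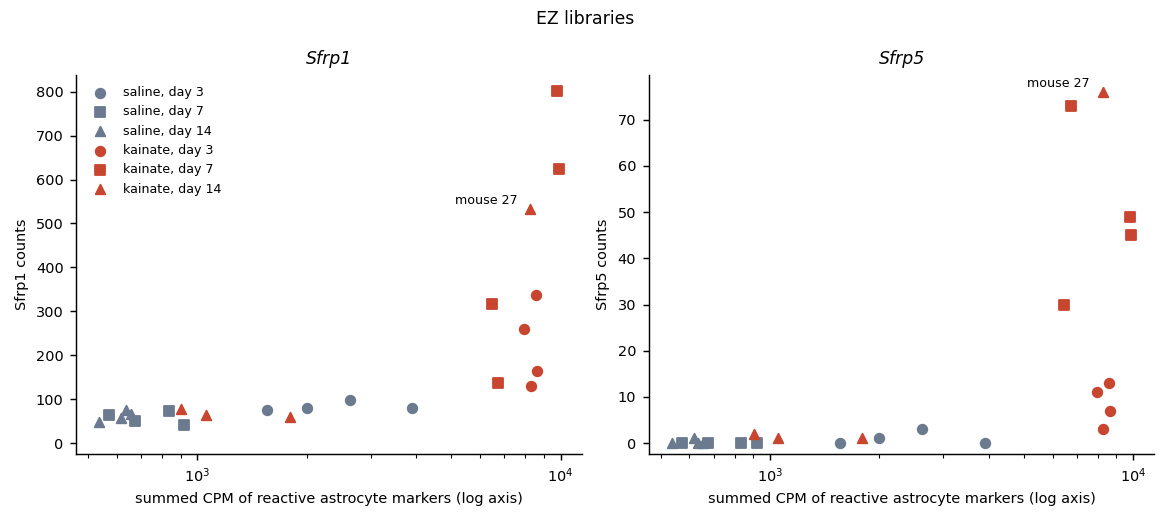
Counts of Sfrp1 and of Sfrp5 (y axes) in each of the 24 EZ libraries are plotted against the summed CPM of 8 reactive astrocyte markers (x axis, log scale), with colors for the injection and symbols for the day. Kainate mouse 27 at day 14, with 532 Sfrp1 and 76 Sfrp5 counts, lies near the day 7 kainate libraries, which hold 137 to 801 Sfrp1 and 30 to 73 Sfrp5 counts. The day 3 kainate libraries have marker sums of 7945 to 8615 CPM with 129 to 337 Sfrp1 and 3 to 13 Sfrp5 counts.

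Markers of reactive astrocytes and microglia were higher in the same groups. In the EZ, 7 of 8 reactive astrocyte and 7 of 8 microglia markers rose at day 3, and 7 of 8 and 8 of 8 at day 7. The summed reactive astrocyte markers were 6460 to 9895 CPM in kainate libraries at day 7 and 571.9 to 918.7 CPM in saline libraries, and the summed microglia markers were 1850 to 6943 and 461.4 to 507.9 CPM. Within the kainate-injected mice of day 7, mouse 23 had the highest Sfrp5 count but the lowest microglia sum, 1850 CPM, and a reactive astrocyte sum of 6726 CPM, near the low end. In the PIZ at day 3, 6 of 8 reactive astrocyte markers rose, with sums of 5207 to 6447 CPM, and 8 of 8 microglia markers. There the groups did not overlap for Sfrp1 or Sfrp5, and a call depended on the test, as Sfrp5 was called by limma-voom (3.20, adjusted p = 0.000316) and Sfrp1 with only the compared groups in the edgeR model (0.76, adjusted p = 0.00289). In the EZ, 5 of 10 markers of meninges and fibroblasts rose at day 3, and 6 rose and 1 fell at day 7. Summed neural stem and progenitor markers there were 203.3 to 387.5 CPM after kainate and 183.1 to 200.6 CPM after saline at day 3. At day 7 they were 196.2 to 308.3 and 147.8 to 185.2 CPM. Summed mural and endothelial markers were 389.3 to 686.1 and 305.2 to 339.3 CPM at day 3 and overlapped at day 7. Summed homeostatic astrocyte markers were lower after kainate at day 3 and higher at day 7, without overlap. Of 10 choroid plexus markers, 6 passed the filter, Ttr had a mean of 0.836 CPM, and in the EZ Aqp1 and Prlr rose at day 3 while Kl fell at both days. Mouse 23, with the highest Sfrp5 counts of day 7 on both sides, had summed choroid plexus markers of 41.2 CPM in the EZ, where the other 3 kainate-injected mice had 7.30 to 15.0 CPM and saline-injected mice 25.5 to 32.7 CPM, and of 46.8 CPM in the PIZ, where the others had 24.5 to 28.3 and 22.5 to 32.7 CPM. Mouse 27, with the highest Sfrp5 count of all libraries, had 9.11 CPM in the EZ at day 14, the lowest of its group, and 61.6 CPM in the PIZ, the highest of all 48 libraries, where it held 5 Sfrp5 counts. The part of these cell types in the increases of Sfrp1 and Sfrp5 was not tested.

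Sfrp2 held 3 to 29 counts per library, so its values carry wide counting error. The gene (ENSMUSG00000027996, chromosome 3, 83673481 to 83681623, plus strand) was called in no kainate against saline comparison. In the EZ at day 3 kainate libraries held 7 to 10 counts and saline libraries 4 or 5, with a log2 fold change of 0.65 (SE 0.55 and adjusted p = 0.344). At day 7 the EZ values were 4, 11, 22 and 25 counts against 5 to 10. In the PIZ the log2 fold change was -1.22 (SE 0.48 and adjusted p = 0.0621) at day 3 and 1.28 (SE 0.51 and adjusted p = 0.224) at day 7, and the 3 highest counts of the PIZ, 29, 25 and 26, were in the libraries of mice 18, 21 and 39. Without these libraries the values were -0.76 and 0.90.

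Frzb followed Dkk3 in level per kilobase of exon, though in CPM Apcdd1 lay above it (means of 53.2 and 20.88 CPM over all libraries). Frzb was not called by edgeR with all groups in the model in any kainate against saline comparison. Its log2 fold changes there lay between -1.19 and 0.02. It was called lower by limma-voom in the EZ at day 3 (-0.81, adjusted p = 0.00462) and in the PIZ at day 3 (-1.09, adjusted p = 0.00176) and day 7 (-1.29, adjusted p = 0.00215). With only the compared groups in the edgeR model it was called in the EZ at day 3 (-1.16, adjusted p = 0.00722). The gene (ENSMUSG00000027004, chromosome 2, 80242313 to 80278304, minus strand) had 5.39, 8.12, 13.2 and 13.9 CPM in the EZ of kainate-injected mice at day 3 and 18.5, 18.5, 25.4 and 25.6 CPM in saline-injected mice. The groups did not overlap, and the log2 fold change of -1.11 (SE 0.40) had an adjusted p of 0.0207. The summed granule cell markers did not overlap there either, at 950.6 to 1499 CPM after kainate and 1559 to 1877 CPM after saline. They overlapped at day 7, and their part in the Frzb values was not tested. At day 7 Frzb in the EZ was 12.4 to 24.9 and 16.0 to 22.9 CPM, with a log2 fold change of -0.26 (SE 0.39 and adjusted p = 0.596). At day 14 mouse 27 had 39.7 CPM, and the other 3 kainate-injected mice had 12.6, 13.5 and 15.0 CPM, below the 17.9 to 22.9 CPM of saline-injected mice.

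In the PIZ at day 3, Frzb had 10.6, 12.6, 16.6 and 20.2 CPM after kainate and 19.2, 30.9, 33.8 and 53.1 CPM after saline. The log2 fold change was -1.19 (SE 0.40 and adjusted p = 0.0264). At day 7 it had 7.61, 9.07, 14.5 and 43.2 CPM after kainate and 23.98 to 33.24 CPM after saline, and at day 14 it had 7.60 to 17.4 and 22.3 to 53.8 CPM. The groups overlapped at day 3 and day 7 and did not overlap at day 14. The value was -0.55 at day 7 (SE 0.39 and adjusted p = 0.539) and -1.14 at day 14 (SE 0.40 and adjusted p = 0.513). The highest values, 53.1, 43.2 and 53.8 CPM, belonged to the libraries of mice 18, 21 and 39, where the other 21 PIZ libraries had 7.60 to 33.8 CPM. With these 3 libraries left out of the edgeR fit, a choice made after the data were seen, the log2 fold change was -0.89 at day 3 (adjusted p = 0.0472), -1.39 at day 7 (adjusted p = 0.0243) and -0.75 at day 14 (adjusted p = 0.790). It was not called in any of the 3 comparisons. The kainate effect on Frzb differed between EZ and PIZ by 0.07 at day 3 (SE 0.56 and adjusted p = 0.958), 0.30 at day 7 (SE 0.56 and adjusted p = 0.722) and 1.16 at day 14 (SE 0.56 and adjusted p = 0.675), and it was called at none of them.

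**Figure D4:**
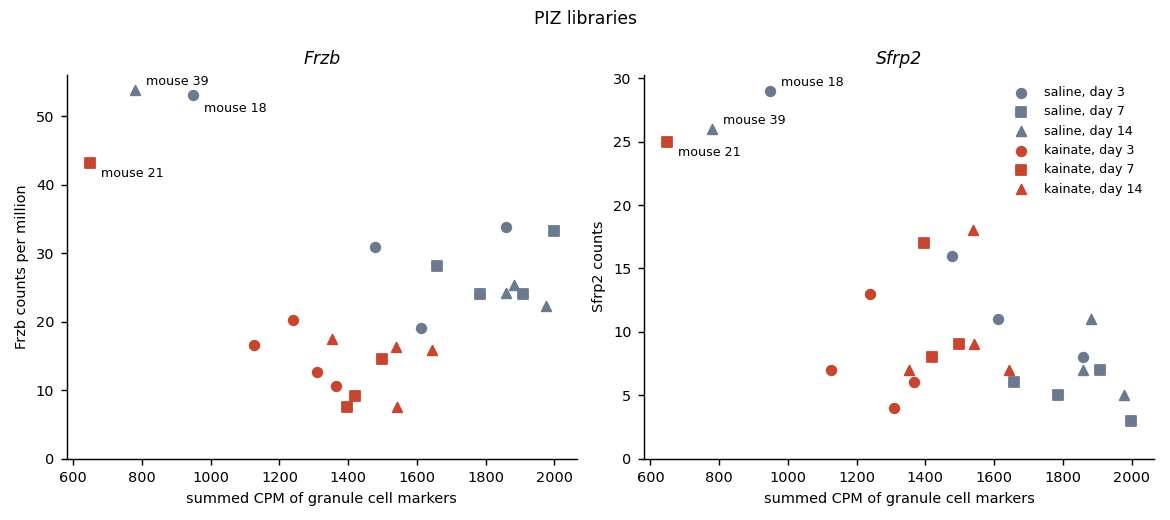
Frzb in CPM and Sfrp2 in counts (y axes) are plotted against the summed CPM of 10 granule cell markers (x axis) in each of the 24 PIZ libraries, with colors for the injection and symbols for the day. Mice 18, 21 and 39 have the lowest marker sums and the highest Frzb and Sfrp2 values, and among the other libraries Frzb is 7.60 to 20.2 CPM after kainate and 19.2 to 33.8 CPM after saline. In these other libraries the marker sums are also lower after kainate within each day. They are 1125 to 1366 against 1477 to 1860 CPM at day 3 and 1397 to 1499 against 1659 to 1998 CPM at day 7. At day 14 they are 1352 to 1644 against 1858 to 1977 CPM, and their part in the Frzb values was not tested.

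The sides of saline-injected mice were compared over the 3 days together. Frzb was lower in the EZ than in the PIZ of the same mouse in 11 of 12 saline-injected mice, with a mean difference of -0.51 log2 CPM (exact two-sided sign-flip test, p = 0.000977, 1 of 9 such tests). Without mice 18 and 39 it was lower in 9 of 10, with a mean of -0.35 (exact sign-flip p = 0.00391). The edgeR fit over all genes gave -0.57 (SE 0.23 and adjusted p = 0.481) and did not call it, and 0.0234% of all genes were called. Sfrp2 had a larger edgeR difference of -0.85 (SE 0.31 and adjusted p = 0.445), which was not called either. None of the other 8 members reached an exact p under 0.05 over these 12 mice, where the next lowest was 0.0713 for Sfrp2.

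Wif1 fell in the EZ at day 3 and day 7. The gene (ENSMUSG00000020218, chromosome 10, 120869865 to 120936555, plus strand) encodes a secreted protein that binds Wnt ligands through its WIF domain. At day 3 the kainate libraries held 0, 7, 10 and 11 counts and the saline libraries 9, 12, 16 and 30, so the groups overlapped. No count was found in the library of kainate mouse 30. The log2 fold change was -1.49 (SE 0.45 and adjusted p = 0.00590), and the ratio of summed values was 0.351 (exact 95% interval 0.218 to 0.554). At day 7 the kainate libraries held 3, 3, 7 and 8 counts and the saline libraries 8, 10, 16 and 21. In CPM the groups did not overlap, but only just, as the highest kainate value was 0.4079 CPM and the lowest saline value 0.4083 CPM. The log2 fold change was -1.52 (SE 0.47 and adjusted p = 0.00635).

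Each of these Wif1 calls was lost in 4 of 8 fits that left out 1 mouse. At day 3 these were kainate mice 30 and 42 and saline mice 37 and 41, with an adjusted p of up to 0.0733, and at day 7 kainate mice 21 and 35 and saline mice 33 and 89, with up to 0.0345. The day 3 call was also lost with library size as the only scaling (adjusted p = 0.0112) and with only the compared groups in the model (adjusted p = 0.0753), and the day 7 call with limma-voom (adjusted p = 0.0455). At day 14 the log2 fold change was -0.48 (SE 0.43 and adjusted p = 0.588). In the PIZ at day 7 the kainate libraries held 10 to 37 and the saline libraries 9 to 14 counts, a log2 fold change of 0.68 (SE 0.41 and adjusted p = 0.456). The kainate effect at day 7 was lower in the EZ than in the PIZ by -2.20 (SE 0.63 and adjusted p = 0.0103), which was not called. It was called with the mouse as a block (-2.16, adjusted p = 0.00754) and without kainate mouse 23 (-2.56, adjusted p = 0.00492). Of 8 interneuron markers, 5 fell in the EZ at day 3 and 4 at day 7, among them Sst and Pvalb. The summed interneuron markers in the EZ at day 3 were 294.4 to 467.1 CPM after kainate and 422.9 to 590 CPM after saline, and at day 7 222.8 to 515.2 and 447.7 to 558.4 CPM. The part of these cells in the Wif1 values was not tested.

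Dkk3 fell in the EZ at day 3 and day 7. The gene (ENSMUSG00000030772, chromosome 7, 111712904 to 111758760, minus strand) was the most abundant member. At day 3 it had 88.3, 94.2, 108 and 133 CPM in the EZ of kainate-injected mice and 248, 273, 308 and 329 CPM in saline-injected mice. The ranges were far apart, and the log2 fold change was -1.45 (SE 0.20 and adjusted p = 4.38e-07), a 2.73-fold difference. At day 7 the values were 145, 164, 185 and 202 CPM against 246, 285, 296 and 388 CPM, with a log2 fold change of -0.80 (SE 0.19 and adjusted p = 5.53e-04). Both calls held when each mouse was left out in turn.

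At day 14 Dkk3 in the EZ had 138, 174, 292 and 372 CPM after kainate and 193 to 305 CPM after saline, and the log2 fold change was -0.03 (SE 0.19 and adjusted p = 0.959). In the PIZ at day 3 the groups did not overlap, at 165 to 269 CPM against 280 to 376 CPM, with a log2 fold change of -0.47 (SE 0.19 and adjusted p = 0.0684). Dkk3 was lower in the EZ than in the PIZ of the same mouse in 4 of 4 kainate-injected mice at day 3 and in 4 of 4 at day 7. The difference of the kainate effects between regions was -0.98 at day 3 (SE 0.27 and adjusted p = 0.0678) and -0.58 at day 7 (SE 0.27 and adjusted p = 0.103), and it was not called by edgeR with all mice at either day, but at day 3 it was called by limma-voom (-1.07, adjusted p = 0.000709) and without kainate mouse 44 (-1.23, adjusted p = 0.00867). Markers of neurons fell in the same EZ libraries, with 6 of 8 pyramidal cell markers lower at day 3 and 7 of 8 at day 7, and 3 of 10 and 4 of 10 granule cell markers. The summed granule cell markers did not overlap at day 3, at 950.6 to 1499 CPM after kainate and 1559 to 1877 CPM after saline, and overlapped at day 7. The summed mossy cell markers, mostly Sv2b and Ap2s1, did not overlap at either day. They were 124.7 to 165 CPM after kainate and 298.1 to 507.8 CPM after saline at day 3, and 141.8 to 203.7 and 279.3 to 535.6 CPM at day 7. In the PIZ at day 3 the summed pyramidal cell markers were 408.8 to 564.4 CPM after kainate and 670.4 to 934.2 CPM after saline. Their part in the Dkk3 values was not tested.

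Of the 2 membrane ubiquitin ligases, Rnf43 rose in the EZ and Znrf3 showed no called change. Rnf43 (ENSMUSG00000034177, chromosome 11, 87553548 to 87626377, plus strand) had 2.91, 3.37, 4.75 and 5.62 CPM in the EZ of kainate-injected mice at day 3 and 1.71 to 2.48 CPM in saline-injected mice, without overlap. The log2 fold change was 0.88 (SE 0.22 and adjusted p = 0.00112). At day 7 it had 2.89, 2.96, 4.66 and 5.35 CPM against 1.95 to 2.68 CPM, a log2 fold change of 0.74 (SE 0.22 and adjusted p = 0.00400). The day 3 call was lost without kainate mouse 38 (adjusted p = 0.0141) and the day 7 call without kainate mouse 21 or 35 or saline mouse 33 or 89, where the adjusted p reached 0.04. With only the compared groups in the model neither was called (adjusted p = 0.0144 and 0.0360). In the PIZ at day 3 it had 2.44 to 3.86 CPM after kainate and 2.14 to 2.51 CPM after saline, a log2 fold change of 0.49 (SE 0.22 and adjusted p = 0.103).

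Znrf3 (ENSMUSG00000041961, chromosome 11, 5226324 to 5394939, minus strand) ranged from 14.9 to 25.0 CPM over all 48 libraries. Its log2 fold changes lay between -0.21 and 0.05 in the 6 comparisons, each with a standard error of 0.10, and the groups overlapped in all of them. The smallest adjusted p was 0.163, in the EZ at day 7.

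Apcdd1, the membrane glycoprotein, was higher in the EZ at day 3 and day 7 by less than the fold limit. The gene (ENSMUSG00000071847, chromosome 18, 63055302 to 63094250, plus strand) had 61.8, 74.8, 76.5 and 81.1 CPM in the EZ of kainate-injected mice at day 3 and 50.2 to 57.5 CPM in saline-injected mice. At day 7 it had 57.5, 60.6, 74.2 and 79.0 CPM against 44.4 to 53.0 CPM. The groups did not overlap at either day, and the log2 fold changes were 0.44 at day 3 (SE 0.11 and adjusted p = 0.00168) and 0.51 at day 7 (SE 0.11 and adjusted p = 2.17e-04). Both are under 1.5-fold, so neither was called, although the day 7 value was called without kainate mouse 26 (0.59) and with library size as the only scaling (0.60). At day 14 the log2 fold change was -0.06 (SE 0.11 and adjusted p = 0.813).

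The PIZ had 54.4 to 66.7 CPM of Apcdd1 at day 3 after kainate and 45.9 to 54.0 CPM after saline, a log2 fold change of 0.33 (SE 0.11 and adjusted p = 0.0312). At day 7 it had 36.6 to 52.6 and 45.3 to 53.9 CPM, a log2 fold change of -0.12 (SE 0.11 and adjusted p = 0.685). The kainate effect on Apcdd1 at day 7 was larger in the EZ by 0.63 (SE 0.16 and adjusted p = 0.00541) and was called. With Sfrp1 this made 2 of 9 members called as larger in the EZ at day 7 (2 by DESeq2, 3 by limma-voom), against 9.89% of all genes called in either direction and 7% called as larger, while edgeR called 0 of 9 at day 3, against 0.0655% in either direction, and 0 of 9 at day 14, against 0%. At these 2 days 3 members and 1 member had an unadjusted p under 0.05, DESeq2 called 0 and 0, and limma-voom called 1 and 0. The Apcdd1 call was lost without saline mouse 20, 34 or 89 or kainate mouse 21 or 35, with the mouse as a block (0.63, adjusted p = 0.0133) and without the 3 PIZ libraries (0.53, adjusted p = 0.0213).

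The course over days was compared within the EZ, where the effects at different days come from different mice. From day 3 to day 7, edgeR called 0 of 9 members, against 0.145% of all genes. The lowest adjusted p was that of Sfrp1, with a difference of 1.67 (SE 0.59 and adjusted p = 0.210). From day 7 to day 14, 0 of 9 were called, against 0.271%, and these comparisons share the day 7 mice with the earlier one. In each of the 2 steps 3 members had an unadjusted p under 0.05 and DESeq2 called 0, and limma-voom called 2 and 4. From day 7 to day 14 the difference was 0.78 for Dkk3 (SE 0.27 and adjusted p = 0.0475), -0.58 for Apcdd1 (SE 0.16 and adjusted p = 0.0208) and -1.30 for Sfrp1 (SE 0.60 and adjusted p = 0.124). Without mouse 27 these became 0.91, -0.68 and -2.67, and all 3 were called (adjusted p = 0.00928, 0.00128 and 1.69e-05). Apcdd1 was also called without kainate mouse 23 (-0.63) or 26 (-0.65).

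The other genes of the pathway give the setting of these values. Of 16 further Wnt antagonist genes, 13 were tested, and their median log2 fold change in the EZ was -0.25 at day 3 and -0.24 at day 7. Among them Kremen1 was the 1 that rose at day 3 (log2 fold change 0.70, SE 0.12 and adjusted p = 1.24e-05), and 2 fell, Dkkl1 (-1.75) and Notum (-1.03). At day 7, Kremen1 (0.83, SE 0.12 and adjusted p = 4.94e-07) and Dkk2 (2.85, SE 0.70 and adjusted p = 7.17e-04) rose and Trabd2b (-1.54, SE 0.37 and adjusted p = 6.03e-04) fell. Kremen1 is a receptor for Dickkopf proteins, and the classic Dickkopf antagonist Dkk1 had at most 1 count in any library, so its expression was not detectable at this depth. Axin2, a negative-feedback target of beta-catenin, had a log2 fold change of -0.25 at day 3 (adjusted p = 0.0783) and -0.41 at day 7 (adjusted p = 0.00277), the latter under 1.5-fold.

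Of 15 tested Wnt ligands, 5 rose and 1 fell in the EZ at day 3, and 4 rose and 2 fell at day 7, with medians of -0.20 and 0.27. Wnt7b, the most abundant, had a log2 fold change of 1.39 (SE 0.17 and adjusted p = 1.08e-07) at day 3 and 0.54 (SE 0.17 and adjusted p = 0.00674) at day 7, the latter under 1.5-fold. Of 15 receptors and coreceptors, 5 rose and 1 fell at day 3 and 8 rose and 1 fell at day 7, with medians of 0.64 and 0.99. The 2 most abundant, Fzd3 and Lrp6, were not called. R-spondins and their Lgr receptors act against Rnf43 and Znrf3. The 2 most abundant, Lgr4 and Rspo2, differed on the log2 scale at day 7 in the EZ by -0.34 (SE 0.10 and adjusted p = 0.00499) and -1.29 (SE 0.54 and adjusted p = 0.0388), and neither met both limits. Of 9 tested feedback targets, 3 of which are members, Lef1, Tcf7 and Rnf43 rose at both days, and Notum fell at day 3. Over the same comparisons the share of all genes called was 16.1% higher and 8.61% lower at day 3, and 20.6% and 11.9% at day 7.

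The genes whose log2 CPM was most like each member over the 48 libraries were listed as a description, since the libraries share mice, groups and depth. For Sfrp1 they included Asah1, which encodes a lysosomal enzyme, and Garre1 (Pearson's r 0.949 and 0.944). For Sfrp5 they were Plac9, Emid1 and Trp53inp2 (0.938, 0.926 and 0.916), and for Rnf43 Cysltr1, Lilra6 and Cyp39a1 (0.877, 0.875 and 0.873). For Dkk3 they were Gnao1, Eps15 and Cntnap2 (0.931, 0.927 and 0.927), of which Gnao1 and Cntnap2 are neuronal genes. For Wif1 they were Pvalb, Dlx6os1 and Tac1 (0.794, 0.790 and 0.787), and Pvalb marks a class of interneurons. Within groups these Wif1 values were 0.531, 0.474 and 0.473 (for Pvalb, Spearman's rho over all libraries was 0.483), and those of the other genes listed for the members lay between 0.643 and 0.894.

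Frzb was most like Tspan18, Tgfb2 and Septin8 (0.868, 0.811 and 0.798), and Sfrp2 most like Nhs, Epb41l4a and Adgra1 (0.728, 0.713 and 0.712). Apcdd1 was most like Alox5ap, Ilk and Slc12a4 (0.879, 0.877 and 0.875), and Znrf3 most like Khdrbs2, Hecw1 and Lingo2 (0.768, 0.744 and 0.740). Among the members themselves, Sfrp1 and Sfrp5 had an r of 0.849, Sfrp1 and Rnf43 one of 0.8 and Dkk3 and Apcdd1 one of -0.759. After subtraction of the group means these were 0.548, 0.612 and -0.500. Sfrp2 and Frzb had an r of 0.356 over all libraries and 0.583 within groups.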

How the data were processed

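The authors trimmed paired poly(A) reads with fastp 0.20.1, aligned them to GRCm39 with HISAT2 2.2.1 and counted them per gene with featureCounts (Subread 1.6.4). The deposited values are raw counts. Of the gene identifiers, 98.9% matched the Gencode M39 annotation, which gave symbols and positions. Here edgeR 4.0.16 in R 4.3.3 was used with its expression filter, TMM scaling and a quasi-likelihood fit of 12 group means over 48 libraries, and p-values were adjusted by Benjamini-Hochberg over 21390 genes. A gene was called at an adjusted p under 0.01 and a fold over 1.5. Single values were tested with two-sided exact permutation or sign-flip tests of log2 CPM with a prior count of 2, for which 4 mice against 4 allow no p under 0.0286 and 4 pairs none under 0.125. Sides of a mouse are paired, and their residuals correlated from -0.0536 to 0.376 (median 0.208). The fit without a mouse block was used, with the block as an alternative. Others were RLE or library-size scaling, filters of no or 10 counts, an adjusted p under 0.05, DESeq2 1.42.0, limma-voom with quality weights per library (limma 3.58.1, called limma-voom in the text), prior counts of 0.5 and 5, the compared groups alone and each mouse left out. Depth limits Sfrp2, Sfrp5 and Wif1, which hold few counts, and intervals and the floor of 3 counts cover counting error only. Scripts were tested on simulated data. The members and the gene lists were chosen with earlier results of these data known. All members were described, and the other genes named were the 2 most abundant of a list, those in a count of 5 or fewer, markers near 0 and the 3 genes most correlated with each member, of which 1 is not reported here.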

Additional observations from a re-analysis of the deposited data

Results flagged for a closer look

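Of 108 groups of 4 mice searched for a library far from the other 3 in log2 CPM by Dixon's ratio of gap to range, 8 were found, and chance gives about 1 in 20. The saline groups of Sfrp5 in the EZ at day 7 and in the PIZ at day 14 held only 0 counts and could not be flagged. Kainate mouse 27 at day 14 stood apart in the EZ with Sfrp5 at 1.82 and Frzb at 5.31, each the highest of its group, and in the PIZ with Frzb at 2.94, the lowest. The PIZ of saline mouse 39 at day 14 had the highest Frzb, 5.75. The EZ of kainate mouse 36 at day 14 had the highest Wif1, -0.014, from 16 counts. The EZ of saline mouse 24 at day 14 had the highest Sfrp5, -2.83, from a single count, where the rate of 1 in 20 need not hold. The EZ of saline mouse 37 at day 3 had the lowest Rnf43, 0.846, and the PIZ of kainate mouse 44 at day 3 the lowest Znrf3, 4.02.

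The effect of kainate at day 7 differed between the EZ and the PIZ by 2.30 for Sfrp1 and by 0.629 for Apcdd1 on the log2 scale. This was the edgeR test of the difference itself, in the fit that does not pair the sides of a mouse. With the mouse as a block neither was called (adjusted p = 0.0153 and 0.0133), and neither was called without the 3 PIZ libraries.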

How the results depend on the processing

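Over 2811 recomputed member values none changed direction past the threshold, 42 lost and 37 gained a call. In the EZ, the 3 members called at day 3 became 5 at an adjusted p under 0.05 and 6 with limma-voom, stayed 3 with the compared groups alone, where Sfrp1 and Frzb were gained and Wif1 and Rnf43 lost, and were 2 to 3 without 1 mouse. The 5 called at day 7 became 3 with at least 10 counts in every library or with the compared groups alone, 6 with library size as the only scaling, and 3 to 6 without 1 mouse. The 1 called at day 14 became 2 at an adjusted p under 0.05 or with DESeq2, 0 with at least 10 counts, with limma-voom or with the compared groups alone, and 0 to 2 without 1 mouse. The cause was not tested, except that a minimum of 10 counts in every library removes Sfrp5 and Wif1 from the test. With the compared groups alone the count filter likewise removed Wif1 at day 7 and Sfrp5 at day 14, so these were untested and not lost calls.

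In the PIZ, the 0 members called at day 3 became 1 at an adjusted p under 0.05 or with the compared groups alone and 2 with limma-voom, and the 0 at day 7 became 1 with limma-voom. Of differences between regions, the 0 at day 3 became 1 with limma-voom and 0 to 1 without 1 mouse. The 2 at day 7 became 0 without the count filter or without the 3 PIZ libraries (chosen after the data were seen), 1 with the compared groups alone, 3 with limma-voom or at an adjusted p under 0.05, 1 in the paired fit with the mouse as a replicate block, where Sfrp1 (2.09, adjusted p = 0.0153) and Apcdd1 (0.63, 0.0133) were lost and Wif1 (-2.16, 0.00754) was gained, and 0 to 3 without 1 mouse. The block was fitted only where both sides of a mouse are compared, and changed no member call in the other 6 such comparisons. Between days in the EZ, the 0 from day 3 to day 7 became 2 with limma-voom, and the 0 from day 7 to day 14 became 1 at an adjusted p under 0.05, 4 with limma-voom and 0 to 3 without 1 mouse.

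Over all genes, the 504 called in the EZ at day 14 became 0 with the compared groups alone and 1030 at an adjusted p under 0.05, and 7 to 893 without 1 mouse. The 6960 at day 7 became 3847 with the compared groups alone. In the PIZ, 1858 at day 3 became 2818 at an adjusted p under 0.05, 43 at day 7 became 822 and 3 at day 14 became 96 with limma-voom. The 2115 that differed between regions at day 7 became 557 without the 3 PIZ libraries and 5126 with limma-voom, and 1 to 3752 without 1 mouse, and 14 at day 3 became 1879 with limma-voom and 2 to 208 without 1 mouse. From day 3 to day 7 in the EZ 31 became 3 with the compared groups alone and 1225 with limma-voom, and from day 7 to day 14 58 became 0 and 6301, and 1 to 4087 without 1 mouse.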
